A study of Mus musculus with 10 samples.

Results

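Lipopolysaccharide (LPS), the outer-membrane glycolipid of Gram-negative bacteria, was given to BV2 cells, an immortalised mouse microglial cell line, in the presence of EPZ-6438, a small-molecule inhibitor of the histone methyltransferase EZH2. The comparison rests on 4 of the 10 RNA sequencing libraries of the series, chosen by their titles: 2 libraries of BV2 cells given EPZ-6438 (10 uM) alone, called control libraries here, and 2 libraries of BV2 cells given EPZ-6438 (10 uM) with LPS (10 ng/ml), called LPS libraries. The labels give 4 h as the time of treatment. The other 6 libraries are primary microglia given the same agents, 3 without and 3 with LPS, from brains of 3-day-old ICR mice pooled from 12 animals, and they serve here only to show where the BV2 response differed. All 4 groups received EPZ-6438, and no group without it was analysed here, so the effect of the inhibitor and any change it makes to the LPS response cannot be told apart. BV2 is a single immortalised line, and nothing in the labels says that libraries with different replicate numbers came from separate cultures, so each p-value speaks of the scatter among these particular libraries, and that scatter could be technical alone.

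LPS is recognised at the cell surface by Toll-like receptor 4 (TLR4) with its partner MD-2 and the co-receptor CD14. Through the adaptor MyD88 the receptor activates IRAK kinases, TRAF6, TAK1 and the IkB kinases, which release NF-kB dimers to the nucleus, and MAP kinases that act on AP-1 factors. From endosomes, through the adaptor TRIF, it activates TBK1 and IRF3, and the interferon beta that is then secreted drives antiviral genes through a complex that holds STAT2 and IRF9. Microglia are the resident macrophages of the brain, and these routes give them inflammatory cytokines, chemokines and antimicrobial enzymes, followed by inhibitors that limit the response. EZH2 is the catalytic subunit of Polycomb repressive complex 2 (PRC2), which methylates lysine 27 of histone H3 at silent genes.

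The 4 BV2 libraries held 2777451 to 3145124 gene counts each, and between 11657 and 11790 genes had at least 1 read. Levels are CPM, counts scaled to 1000000 a library after adjusting library sizes, so they compare libraries for a gene and never genes with each other. A count of 3 reads, the limit that a count of 0 allows, corresponded to between 0.954 and 1.08 CPM. The ribosomal RNA precursor Rn45s took between 27% and 30.1% of gene counts in these libraries. Its share was less even in the primary libraries, at 50.3%, 51.7% and 40.9% without LPS and 43.7%, 15.7% and 15.99% with LPS. Counts of the 2 control libraries differed by more than sampling noise, with a chi-square over its degrees of freedom of 3.50, and those of the 2 LPS libraries by more, with 6.77. Across genes, log levels correlated at 0.979 within the control group, 0.972 within the LPS group and between 0.937 and 0.944 across groups.

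Markers of the labelled cell type were partly present. Of 16 genes that mark microglia and macrophages, 14 were tested, and Itgam, the integrin chain of CD11b, was at 61.0 and 68.9 against 59.5 and 57.2 CPM, while Lyz2, lysozyme of myeloid cells, was at 3091 and 2956 against 2706 and 3106 CPM. Of genes that set resident microglia apart, Tmem119 stood at 19.6 and 14.7 against 12.3 and 11.2 CPM, and P2ry12, an ADP receptor, was too low to be tested. Aif1, which encodes Iba1 and is on the same list of microglia and macrophages, was also too low to be tested. Among markers of other cells, 8 of 10 for astrocytes, 7 of 8 for neurons, 7 of 8 for fibroblasts and 8 of 8 for lymphocytes had no read in any BV2 library. The endothelial list had 3 of 7 at 0, the oligodendrocyte list 5 of 10, and the neutrophil list 4 of the 7 in the files, and no member of these 7 lists was called by the test described below. The summed level of the neutrophil markers was 1.35 and 0.733 CPM in the control libraries and 1.5 and 1.28 CPM in the LPS libraries. Sums for neurons, fibroblasts and lymphocytes were at most 1.02 CPM. Some members of the other lists were expressed. Endothelial markers summed to 150 and 123 against 122 and 109 CPM. Astrocyte markers summed to 46.7 and 46.2 against 46.4 and 43.1 CPM, and oligodendrocyte markers to 30.8 and 31.5 against 28.8 and 28.4 CPM.

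Promoter sequences of 8 genes are shown because LPS is known to act through NF-kB and interferon factors, which bind known letters. They come from RefSeq, build GRCm38.p6, which is the mm10 build of the files, and each is the 250 bases before the annotated start, written 5′ to 3′ in the direction of transcription. The first 4 belong to genes with large rises, and capitals mark every match to a kappa B pattern, which is GGG, then 5 bases of any kind, then CC, on either strand, with overlapping matches joined. They lie at chr5:90903649-90903898 (plus strand) for Cxcl2, chr5:30012864-30013113 (plus strand) for Il6, chr1:120505025-120505274 (minus strand) for Marco and chr14:103046762-103047011 (plus strand) for Irg1, which RefSeq lists as Acod1.
Cxcl2: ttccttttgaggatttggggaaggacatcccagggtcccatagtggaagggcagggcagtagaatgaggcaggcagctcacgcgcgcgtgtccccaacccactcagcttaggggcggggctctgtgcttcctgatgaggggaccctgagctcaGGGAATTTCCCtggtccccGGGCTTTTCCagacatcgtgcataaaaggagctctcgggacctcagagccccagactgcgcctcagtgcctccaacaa
Il6: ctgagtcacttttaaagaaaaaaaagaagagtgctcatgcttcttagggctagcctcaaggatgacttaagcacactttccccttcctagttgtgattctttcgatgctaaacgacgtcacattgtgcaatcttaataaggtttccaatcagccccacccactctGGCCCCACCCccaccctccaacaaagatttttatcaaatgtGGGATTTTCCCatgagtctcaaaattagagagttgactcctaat
Marco: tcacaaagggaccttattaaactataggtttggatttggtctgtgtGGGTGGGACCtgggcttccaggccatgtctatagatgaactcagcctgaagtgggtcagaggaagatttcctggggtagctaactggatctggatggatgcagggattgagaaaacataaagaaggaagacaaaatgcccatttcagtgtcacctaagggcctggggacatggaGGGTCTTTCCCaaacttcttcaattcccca
Irg1: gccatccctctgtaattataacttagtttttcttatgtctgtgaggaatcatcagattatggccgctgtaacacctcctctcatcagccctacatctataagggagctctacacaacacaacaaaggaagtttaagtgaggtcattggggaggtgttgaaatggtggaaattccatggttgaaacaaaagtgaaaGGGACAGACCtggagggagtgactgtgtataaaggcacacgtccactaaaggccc

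The next 4 belong to genes of the interferon response, whose change in BV2 cells was small beside that in primary microglia. Cxcl10 was nevertheless among the 25 largest rises in BV2 cells. Capitals mark every match to GAAA, then 2 bases of any kind, then GAAA, on either strand, a pattern within the site that interferon-activated STAT and IRF complexes bind. They lie at chr5:92348890-92349139 (minus strand) for Cxcl10, chr19:34640639-34640888 (plus strand) for Ifit1, chr4:156200819-156201068 (minus strand) for Isg15 and chr12:26456453-26456702 (minus strand) for Rsad2.
Cxcl10: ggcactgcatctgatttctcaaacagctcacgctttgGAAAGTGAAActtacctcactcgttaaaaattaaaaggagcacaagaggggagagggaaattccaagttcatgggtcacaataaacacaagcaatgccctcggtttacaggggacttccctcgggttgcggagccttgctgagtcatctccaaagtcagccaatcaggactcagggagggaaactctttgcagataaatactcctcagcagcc
Ifit1: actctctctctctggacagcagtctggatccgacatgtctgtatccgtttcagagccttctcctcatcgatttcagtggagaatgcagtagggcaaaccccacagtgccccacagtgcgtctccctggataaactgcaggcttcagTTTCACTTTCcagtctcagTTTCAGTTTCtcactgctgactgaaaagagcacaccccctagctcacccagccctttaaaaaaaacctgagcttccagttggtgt
Isg15: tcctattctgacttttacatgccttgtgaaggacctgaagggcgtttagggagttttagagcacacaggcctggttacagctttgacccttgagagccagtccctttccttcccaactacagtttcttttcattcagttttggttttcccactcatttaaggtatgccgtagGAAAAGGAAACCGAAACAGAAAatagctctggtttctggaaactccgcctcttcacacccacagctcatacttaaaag
Rsad2: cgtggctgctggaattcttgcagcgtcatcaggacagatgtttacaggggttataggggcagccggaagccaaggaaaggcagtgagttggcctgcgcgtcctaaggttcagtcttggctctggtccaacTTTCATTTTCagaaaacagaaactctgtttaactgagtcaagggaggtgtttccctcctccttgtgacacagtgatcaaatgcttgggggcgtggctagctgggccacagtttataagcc

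Counted from the start as position 1 with no position 0, the matches began at -97, -96 and -78 in Cxcl2, -85, -44 and -43 in Il6, -204, -30 and -29 in Marco and -55 in Irg1. Interferon patterns began at -213 in Cxcl10, -104 and -85 in Ifit1, -78, -72 and -66 in Isg15 and -120 in Rsad2. These 4 sequences also held kappa B matches, left in lower case: 3 in Cxcl10, 2 in Ifit1, 1 in Rsad2 and 0 in Isg15. Over the full 300-base windows of the table, which add the 50 bases after the start, 19 of the 25 genes with the largest rises had a window, and 15 of these held a kappa B pattern (78.9%, exact 95% interval 54.4% to 93.9%). The share was 57.1% (12 of 21) among the 25 largest falls, 68.0% among 7600 tested genes with a window and 50.4% among all 27025 windows. Il1b, Il1a, Saa3 and Traf1, which are among the largest rises, held no kappa B pattern in this window. An AP-1 pattern, TGANTCA, stood in 4 of the 19 rises (21.1%), namely Il6, Il1a, Cxcl10 and Gbp2, in 0 of the 21 falls, which allows a share of up to 16.1% by the exact interval, and in 4.58% of tested genes. Over all called genes with a window it stood in 8.83% of 283 rises and in 5 of 111 falls. The interferon pattern stood in 3 of the 19 rises, Saa3, Cxcl10 and Gbp2, in 2 of the 21 falls, Cytip and Amica1, and in 3.03% of tested genes. Over all called genes it stood in 8.13% of these rises and in 5 of these falls, and the kappa B pattern in 72.8% and 59.5%. A match says only that these letters are in the window.

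LPS raised inflammatory cytokines, chemokines, enzymes and feedback inhibitors in BV2 cells, while the chemokine receptor Cxcr4, thrombomodulin (Thbd) and the oxysterol receptor Gpr183 fell furthest. Of 9321 genes past the low-count filter, 485 (5.2%) passed the test, edgeR's quasi-likelihood F test with Benjamini-Hochberg adjusted p below 0.05. Rises numbered 344 (3.69% of genes tested) and falls 141 (1.51%). The median log2 fold change was -0.01 over all genes, 1.54 over the rises and -1.12 over the falls. At least a 2-fold change was fitted for 261 rises and 84 falls, at least 8-fold for 47 rises and 3 falls, and at least 32-fold for 18 rises. The rises took 1.43% and 1.41% of the adjusted library size in the control libraries and 4.10% and 4.16% in the LPS libraries. On the same scale the falls went from 0.816% and 0.790% to 0.440% and 0.418%. A DESeq2 Wald test called 258 rises and 53 falls, all of them among these 485, and of the genes described below whose call held without each library in turn it did not call Cebpb, Dusp8, Eya4, Fam46c, Gpr160, Il10ra, Pilrb1, Slpi and Tmem86a. Groups did not overlap at 1879 genes that were higher with LPS (20.2%) and 2053 that were lower (22%), together 42.2%, which is the background for such counts with 2 libraries against 2.

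**Figure D1:**
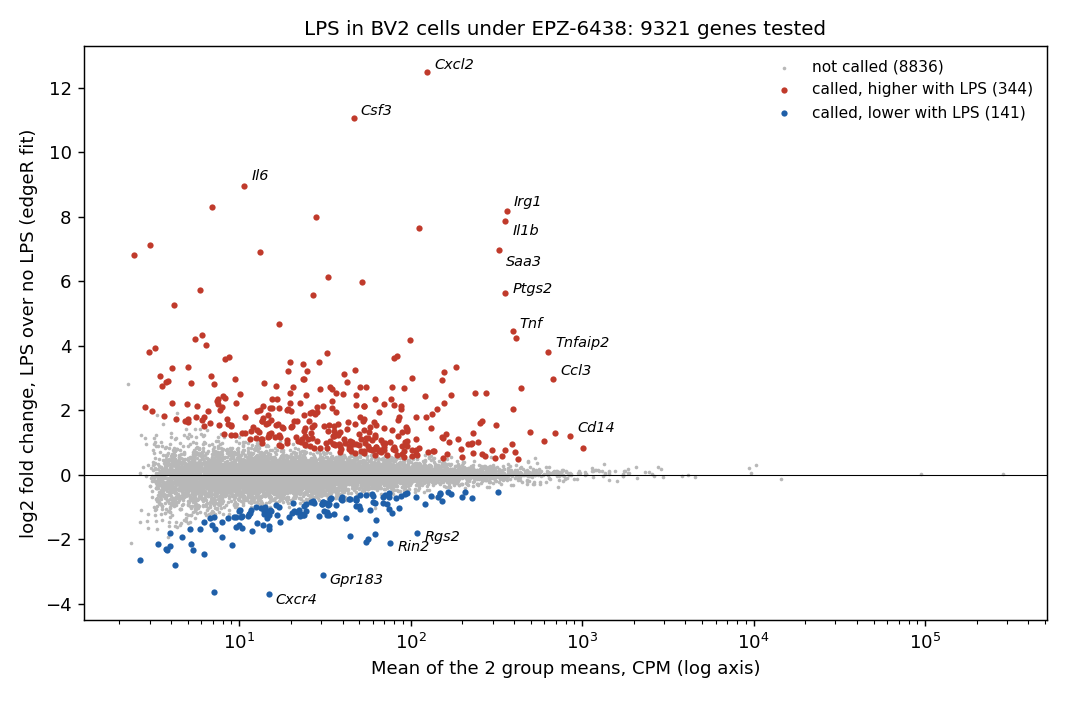
Each point is a gene tested in BV2 cells, with the mean of the 2 group means in CPM (log axis) across and the log2 fold change with LPS upward; red points are the 344 called rises, blue points the 141 called falls and grey points the rest. The highest points are genes with no read in the control libraries, whose fitted value depends on the prior count, while the falls stop at -3.70 at Cxcr4.

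Several of the largest rises had no read in the control libraries. Cxcl2 (chr5:90903899-90905938), a neutrophil-attracting chemokine, went from 0 CPM in both control libraries to 230.3 and 269 CPM, which is at least 476-fold higher against a floor of 3 counts over the group. Csf3 (chr11:98700183-98703631), the granulocyte growth factor G-CSF, went from 0 CPM in both control libraries to 95.7 and 89.8 CPM, at least 175-fold higher. The cytokine Il6 (chr5:30013114-30019975) went from 0 CPM in both control libraries to 16.8 and 25.9 CPM, at least 41.1-fold higher. The scavenger receptor Marco (chr1:120474538-120505024) and the nitric oxide synthase Nos2 (chr11:78920787-78960226) were at least 26.1-fold and 11.4-fold higher. In all 5 genes both LPS libraries held reads and both control libraries held none. Their fitted fold changes depend on the count added before logarithms are taken and are not printed as sizes.

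Other genes had 1 to 3 reads over the control group, so the ratio of counts carries a wide counting error. Lcn2 (chr2:32384637-32387739), which encodes the iron-siderophore binder lipocalin 2, was at 0 and 0.367 CPM in the control libraries and 52.0 and 60.1 CPM in the LPS libraries, a ratio of 320.0 (95% counting interval 57.0 to 12676). Cd69 (chr6:129267324-129275375), an early activation lectin, gave a ratio of 152 (95% counting interval 26.8 to 6029), and Gdf15 (chr8:70629393-70632470), a stress-induced cytokine of the TGF-beta family, gave 65.6 (95% counting interval 11.4 to 2628). Gbp2, a guanylate-binding protein, gave 47.9 (95% counting interval 8.21 to 1932), and Gadd45a, a stress-response gene, 19.9 (95% counting interval 6.49 to 99.1). The noncoding RNA 6530402F18Rik gave 21.9 (95% counting interval 7.16 to 109) and Pstpip2, a membrane-bending adaptor, 17.1 (95% counting interval 4.40 to 147). Each of these 7 genes was called, with the 2 groups apart.

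With more control reads, the largest rise was that of Irg1 (chr14:103047012-103056573), the enzyme that makes itaconate, from 2.71 and 2.20 CPM to 743 and 707 CPM, a log2 fold change of 8.18 ± 0.20 (SE; adjusted p = 2.00e-10). Il1b (chr2:129364569-129371164), the cytokine interleukin-1 beta, rose from 3.39 and 2.57 CPM to 671 and 749.7 CPM. Its neighbour Il1a rose from 0.677 and 1.47 CPM to 202 and 244 CPM. The acute-phase gene Saa3 rose from 4.06 and 6.23 CPM to 579.6 and 721 CPM. Ptgs2 (chr1:150100031-150108234), the inducible cyclooxygenase, rose from 13.9 and 13.9 CPM to 650.2 and 742 CPM. Traf1, an adaptor at TNF receptors, rose by 6.13 ± 0.36, Cxcl10, an interferon-induced chemokine, by 5.98 ± 0.27, and Socs3, an inhibitor of JAK-STAT signalling, by 5.58 ± 0.37. Ccrl2, an atypical receptor that presents chemerin, rose by 4.69 ± 0.34, and Cdc42ep2, an effector of the GTPase Cdc42, by 4.03 ± 0.50. Within each of these genes the LPS libraries lay close together and far above the control libraries.

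**Figure D2:**
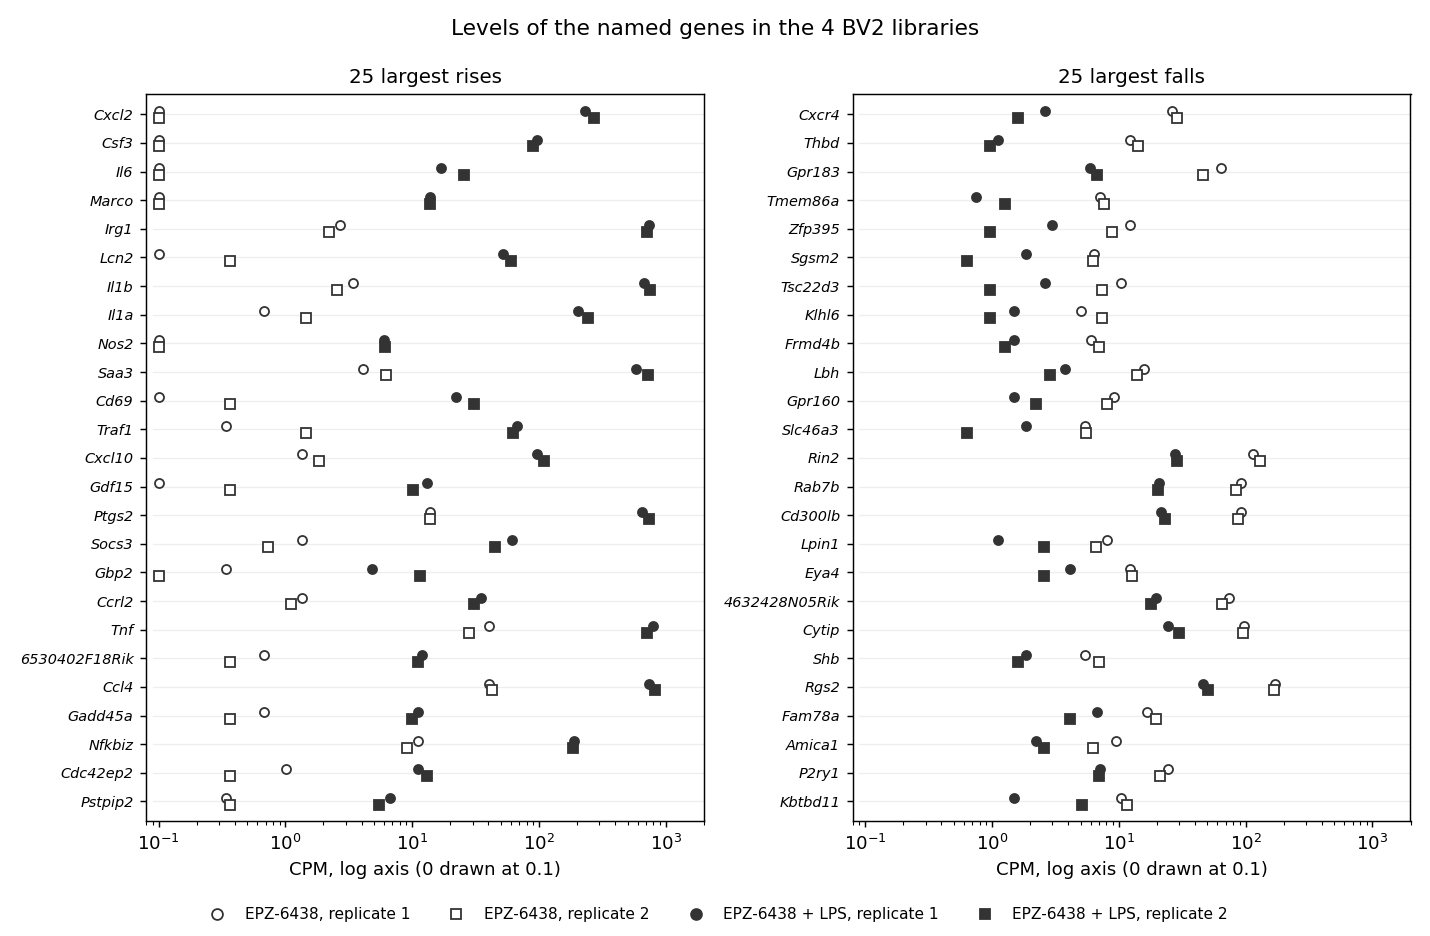
CPM (log axis) in each of the 4 BV2 libraries for the 25 largest called rises, left, and the 25 largest called falls, right; open symbols are control libraries, filled symbols LPS libraries, circles replicate 1 and squares replicate 2, with 0 drawn at 0.1. Open and filled symbols do not overlap for any gene shown, which the rule for choosing them required.

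At the receptor, 7 of the 22 tested members of a list of TLR4, its adaptors and kinases rose and 0 fell, with a median log2 fold change of 0.24 against -0.01 over all genes. Cd14 rose from 532 and 507 CPM to 1203 and 1166 CPM (adjusted p = 1.41e-05). Tlr4 itself was at 30.5 and 51.0 against 17.9 and 25.6 CPM, a log2 fold change of -0.89 ± 0.27 that missed the threshold (adjusted p = 0.0948). Irak2, a signalling kinase of the pathway, rose from 51.5 and 44.4 CPM to 175 and 158 CPM. Irak3, an inhibitory member of the same family, rose from 3.39 and 1.47 CPM to 10.8 and 16.3 CPM. Ikbke, an IkB kinase relative that acts on IRF factors, rose from 64.0 and 46.6 CPM to 225 and 233 CPM, Map3k8, the kinase that leads to ERK, by 1.61 ± 0.26, and the ubiquitin ligase Peli1 by 1.26 ± 0.21. Myd88 was called at 0.61 ± 0.16, but its adjusted p was 0.0794 without control library 1 and 0.492 without control library 2. The kinases Irak1 (0.09), Tbk1 (0.41), Map3k7 (-0.07) and Ikbkb (0.09) did not pass the test. Of the other Toll-like receptors, 1 of 7 rose and 1 fell, with a median of 0.17. Tlr2, which senses bacterial lipopeptides, rose from 159 and 147 CPM to 655 and 610.4 CPM, and Tlr13, a receptor for bacterial ribosomal RNA, fell from 182 and 177 CPM to 109.9 and 125 CPM, a call with an adjusted p of 0.267 without control library 1 and 0.139 without control library 2.

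NF-kB genes rose as a group: 8 of 10 tested members of the list of NF-kB subunits and IkB proteins were called higher and 0 lower, with a median of 1.62. The inhibitor Nfkbia rose from 39.3 and 35.9 CPM to 214 and 193 CPM. The nuclear IkB protein Nfkbiz rose from 11.2 and 9.16 CPM to 187 and 187 CPM. The precursor subunit Nfkb2 rose from 24.7 and 29.3 CPM to 109.6 and 96.8 CPM. Relb rose by 1.93 ± 0.22, Nfkb1 by 1.31 ± 0.16 and Nfkbib by 1.14 ± 0.19 on the log2 scale. Nfkbie was called at 2.09 ± 0.44 and Rel at 1.15 ± 0.30, with adjusted p-values of 0.0593 without control library 1 for Nfkbie and 0.306 without control library 1 and 0.0829 without LPS library 2 for Rel. Rela, the p65 subunit, was at 12.5 and 10.3 against 22.4 and 16.9 CPM, with no overlap between the groups and an adjusted p of 0.151, and Nfkbid was at 10.8 and 15.4 against 22.1 and 21.7 CPM (adjusted p = 0.145).

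Inhibitors of the pathway rose as well. In the list of A20, TRAF and ubiquitin factors 6 of 13 rose and 0 fell (median 0.51). Tnfaip3, which encodes the deubiquitinating enzyme A20, rose from 23.7 and 20.9 CPM to 201 and 159 CPM, and its partners Tnip1 and Tnip3 rose by 2.98 ± 0.27 and 2.24 ± 0.30, although the adjusted p of Tnip1 was 0.0800 in a fit of all 10 libraries. Birc3, a ubiquitin ligase that restrains cell death, rose from 8.81 and 3.67 CPM to 18.7 and 23.6 CPM. Tank was called at 1.20 ± 0.29, with 0.0521 without control library 1 and 0.169 without LPS library 2 as its adjusted p. The RNase Zc3h12a (Regnase-1), which cuts cytokine mRNAs, rose from 5.76 and 4.77 CPM to 43.4 and 39.6 CPM. Its relative Zc3h12c rose from 37.3 and 33.4 CPM to 245 and 292 CPM. Zfp36 (tristetraprolin), which binds AU-rich elements, rose from 9.82 and 11 CPM to 39.3 and 26.8 CPM. These were the 3 of 10 mRNA decay factors that rose, with 0 that fell and a median of 0.29. Among phosphatases of MAP kinases 4 of 9 rose and 1 fell (median 1.27). Dusp2 rose from 15.6 and 19.4 CPM to 84.5 and 72.5 CPM. Dusp16 rose from 6.44 and 5.13 CPM to 20.9 and 28.1 CPM. Dusp4 rose from 10.8 and 10.3 CPM to 34.0 and 26.5 CPM. Dusp8 had 2 reads over the control group and a ratio of 15.7 (95% counting interval 3.99 to 135). Dusp7 was called lower at -0.87 ± 0.19, with an adjusted p of 0.306 without control library 1, and Dusp1 was at 6.10 and 6.96 against 9.35 and 9.90 CPM (adjusted p = 0.497).

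In the list of AP-1, ATF3 and small Maf factors 5 of 9 rose and 0 fell, with a median of 0.84. Junb rose from 130.1 and 120.2 CPM to 415 and 351 CPM. Jund rose from 27.4 and 33.4 CPM to 99.1 and 72.2 CPM. The stress factor Atf3 rose from 29.5 and 20.9 CPM to 85.6 and 74.4 CPM. Maff rose from 6.44 and 3.67 CPM to 26.2 and 25.6 CPM. Fosl2 was called at 0.84 ± 0.20, with an adjusted p of 0.102 without control library 1 and 0.123 without control library 2. Fos was at 3.73 and 2.57 against 2.62 and 2.24 CPM and did not pass the filter, and Jun was at 33.2 and 31.2 against 41.1 and 47.0 CPM (adjusted p = 0.260). Of 7 tested EGR, KLF, NR4A and other early genes 4 rose (median 0.78). Ier3 rose from 14.6 and 14.3 CPM to 94.2 and 96.8 CPM. The antiproliferative gene Btg2 rose from 13.9 and 9.53 CPM to 60.9 and 54.6 CPM. Nr4a1 and Ier2 were called at 1.21 ± 0.26 and 0.78 ± 0.16, with adjusted p-values of 0.127 without control library 2 for Nr4a1 and 0.0565 without control library 1 and 0.0861 without control library 2 for Ier2. Egr1 had no read in any BV2 library. Chosen outside the lists after their values were seen, the C/EBP factor Cebpd rose from 8.47 and 8.43 CPM to 74.8 and 71.9 CPM. Cebpb rose from 6.77 and 5.86 CPM to 19.4 and 16 CPM.

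Secreted cytokines were called in fewer members than the lists hold, and many were close to 0. In the interleukin-1 list 3 of 5 tested members rose (median 1.36). Beside Il1a and Il1b, the receptor antagonist Il1rn rose from 62.0 and 45.1 CPM to 129 and 146 CPM. In the list of relatives of interleukins 6, 10 and 12, the test called 4 of 7 higher (median 1.17). Beside Il6, the cytokine Osm rose from 14.6 and 13.2 CPM to 46.4 and 35.1 CPM. The receptor chain Il10ra rose from 10.8 and 10.3 CPM to 21.7 and 25.9 CPM, and Il15ra was called at 1.71 ± 0.38 with an adjusted p of 0.0862 without control library 2. Il12b, the shared chain of interleukins 12 and 23, was at 0 CPM in both control libraries against 1.5 and 0 CPM in the LPS libraries, and Il10 at 0 CPM in both control libraries against 0 and 0.319 CPM in the LPS libraries, neither of them tested. Of 7 colony-stimulating factors and receptors 2 rose (median 0.26), Csf3 and the macrophage growth factor Csf1, from 57.2 and 56.4 CPM to 119 and 89.1 CPM. Of 8 members of the TNF superfamily 3 rose (median 0.78). Tnf rose from 40.3 and 28.2 CPM to 788 and 713 CPM. Its receptor Tnfrsf1b rose from 53.5 and 50.6 CPM to 316 and 262 CPM. Tnfrsf9 was called at 1.52 ± 0.33 with an adjusted p of 0.110 without control library 1.

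Chemokines were among the strongest risers. Of CC chemokines 6 of 8 rose and 0 fell, with a median of 2.36, and groups did not overlap in any of the 8. Ccl3, an attractant of macrophages, rose from 156 and 154 CPM to 1100.4 and 1308 CPM. Ccl4, a close relative of Ccl3, rose from 40.6 and 42.5 CPM to 735 and 823 CPM. The monocyte attractant Ccl2 rose from 82.3 and 77.3 CPM to 372 and 562 CPM. Its relative Ccl7 rose from 9.48 and 12.1 CPM to 52.7 and 72.2 CPM. Ccl9 rose from 29.8 and 27.9 CPM to 125 and 135 CPM. Ccl5, attractant of T cells, was called at 1.98 ± 0.51, but its adjusted p was 0.203 without control library 1, 0.307 without control library 2, 0.0843 without LPS library 1 and 0.177 without LPS library 2. Of 3 tested CXC and CX3C members Cxcl2 and Cxcl10 rose, and the median was 5.98, the value of Cxcl10. Cxcl1, a close relative of Cxcl2, was at 0 CPM in both control libraries against 0.374 and 0.958 CPM in the LPS libraries, and Cxcl9 at 0 CPM in both control libraries against 0.374 and 0.319 CPM in the LPS libraries, both below the limit for a test. Of 4 tested chemokine receptors Ccrl2 rose and Cxcr4, the receptor of CXCL12, fell from 26.4 and 28.6 CPM to 2.62 and 1.6 CPM (median -0.20).

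Costimulatory molecules rose in 5 of 9 tested members and fell in 1, with a median of 1.01. Cd40, the receptor of T-cell CD40 ligand, rose from 13.9 and 9.90 CPM to 155 and 154 CPM. Icosl, the ligand of ICOS, rose from 8.47 and 12.1 CPM to 83.8 and 65.8 CPM. Cd83 rose from 64.4 and 59.0 CPM to 128 and 121 CPM. Cd274, which encodes PD-L1, was called at 1.24 ± 0.32, with an adjusted p of 0.242 without control library 2 and 0.101 without LPS library 2. The member that fell, 4632428N05Rik (chr10:60346851-60430294), encodes the checkpoint protein VISTA and went from 73.8 and 65.6 CPM to 19.8 and 17.9 CPM. Cd86 was at 74.5 and 87.6 against 66.9 and 68.7 CPM (adjusted p = 0.550).

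Of the interferon route in BV2 cells, no tested receptor or kinase was called, whereas some regulatory factors were. Ifnb1, which encodes interferon beta, was at 0 CPM in both control libraries against 0.374 and 0 CPM in the LPS libraries. Of 7 tested members of the list of interferon beta, its receptors and kinases edgeR called 0, DESeq2 called 0 and 2 were higher at an unadjusted p below 0.05 (median 0.22). Over all genes tested edgeR called 5.2%, so a count of 0 in so short a list says little. Of 7 interferon regulatory factors 2 rose and 1 fell (median 0.20). Irf1 rose from 22.7 and 26.4 CPM to 95.3 and 68.0 CPM. Irf9 rose from 11.5 and 7.70 CPM to 27.7 and 24.9 CPM. Irf2, which opposes IRF1, was called lower at -1.14 ± 0.26, with an adjusted p of 0.0519 without control library 1, 0.0593 without control library 2 and 0.0880 without LPS library 2. Irf7 was at 9.82 and 8.06 against 15.7 and 15.3 CPM (adjusted p = 0.155). Of 12 STAT and SOCS genes 2 rose (median 0.00), Socs3 and Stat3, the latter at 0.55 ± 0.14 with an adjusted p of 0.267 without control library 1 and 0.412 without control library 2.

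Antiviral genes rose in part. Of 26 tested members of the list of interferon-stimulated antiviral genes 13 rose and 0 fell, with a median of 1.12, and 13 did not pass. The growth-regulating gene Slfn2 rose from 33.9 and 28.2 CPM to 276 and 289.7 CPM. Parp14 rose from 9.15 and 6.96 CPM to 41.1 and 60.4 CPM. Ifit1, which binds viral RNA ends, rose from 1.35 and 1.1 CPM to 13.5 and 16.9 CPM. Rsad2, which encodes viperin, rose from 5.08 and 6.60 CPM to 28.4 and 39.3 CPM. Oasl1, an OAS-like protein, rose from 11.5 and 10.3 CPM to 43.7 and 38.3 CPM. The ubiquitin-like protein Isg15 rose from 2.37 and 2.93 CPM to 12.3 and 15.3 CPM. Cmpk2, a mitochondrial nucleotide kinase, rose from 2.37 and 1.83 CPM to 17.2 and 16.3 CPM, and Dtx3l and Parp9 by 1.11 ± 0.19 and 1.14 ± 0.24. In each of these the LPS libraries lay above the control libraries. Usp18, Oasl2, Samd9l and Xaf1 were called at 1.54 ± 0.32, 1.8 ± 0.47, 2.19 ± 0.52 and 1.67 ± 0.42, with adjusted p-values of 0.0598 without control library 2 for Usp18, 0.138 without control library 2 and 0.321 without LPS library 2 for Oasl2, 0.107 without control library 1 and 0.191 without LPS library 2 for Samd9l and 0.210 without control library 1, 0.0975 without control library 2 and 0.144 without LPS library 2 for Xaf1. Ifit2 was at 4.40 and 4.03 against 2.99 and 7.03 CPM, Oas1a at 19.3 and 20.2 against 25.1 and 21.7 CPM, Bst2 at 94.5 and 96.0 against 102 and 109.9 CPM and Ifitm3 at 40.3 and 34.1 against 39.3 and 41.8 CPM, none of which passed. Of 4 tested guanylate-binding and immunity-related GTPases 3 rose (median 1.79). Beside Gbp2, the autophagy regulator Irgm1 rose from 13.5 and 13.2 CPM to 29.9 and 39.0 CPM. Irgm2 was called at 2.22 ± 0.47 with an adjusted p of 0.106 without control library 2.

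Few genes of antigen presentation were called. Of 16 genes of MHC class I presentation and the immunoproteasome 2 were called higher and 0 lower, with a median of 0.25. That is 12.5% called, against 5.2% of all genes. In this list 10 members were higher without overlap and 1 lower, against 20.2% and 22% of all genes. H2-K1, a class I heavy chain, was called at 0.57 ± 0.12 and H2-Q4 at 1.36 ± 0.32, with adjusted p-values of 0.0853 without control library 1 and 0.309 without control library 2 for H2-K1 and 0.150 without control library 1 and 0.0511 without LPS library 2 for H2-Q4, and the near-identical sequences of class I genes leave the split of reads between them uncertain. The peptide transporter Tap1 was at 11.9 and 12.5 against 14.2 and 14.1 CPM, the immunoproteasome subunit Psmb9 at 15.6 and 18.7 against 14.2 and 12.1 CPM and the class I transactivator Nlrc5 at 65.4 and 55.0 against 69.2 and 76.3 CPM. Of 2 tested class II genes Cd74, the invariant chain, was called at 0.81 ± 0.17, with an adjusted p of 0.0735 without control library 1 and 0.0525 without control library 2 (median 0.46). Of 11 inflammasome genes 3 rose (median 0.04). Nlrp3, the sensor, rose from 23.7 and 25.3 CPM to 162 and 153 CPM. Casp4, the cytosolic LPS sensor caspase-11, rose from 5.76 and 6.23 CPM to 18.3 and 31.9 CPM. Ninj1, which ruptures the membrane of dying cells, was called at 0.70 ± 0.14 with an adjusted p of 0.166 without control library 2. Of 8 complement genes 2 rose (median -0.08). The central component C3 rose from 18.3 and 27.1 CPM to 83.4 and 74.7 CPM, and the receptor C5ar1 from 159 and 145 CPM to 307 and 282 CPM.

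In the list of nitric oxide, arginine and itaconate metabolism 5 of 7 rose and 0 fell (median 0.83). Beside Irg1 and Nos2, Gch1, which makes the cofactor of nitric oxide synthase, rose from 10.2 and 9.90 CPM to 32.2 and 31.3 CPM. Odc1, which starts polyamine synthesis, rose from 749 and 706 CPM to 1299 and 1297 CPM. Slc7a2, an arginine transporter, was called at 0.65 ± 0.15, with an adjusted p of 0.259 without control library 1 and 0.0985 without control library 2. The adjusted p of Nos2, whose LPS libraries stood at 5.98 and 6.07 CPM, was 0.130 in the fit of all 10 libraries. Of 10 genes of prostaglandin and leukotriene synthesis Ptgs2 alone was called (median 0.15). Of 9 NADPH oxidase and superoxide dismutase genes 3 were called (median 0.26). Cybb, the catalytic subunit of the phagocyte oxidase, rose from 164 and 156 CPM to 401 and 529.9 CPM. Sod2, the mitochondrial dismutase, rose from 125 and 125 CPM to 381 and 406 CPM. Ncf1 was called at 0.72 ± 0.18 with an adjusted p of 0.196 without control library 1 and 0.181 without control library 2.

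Of 13 NRF2-linked genes 4 were called higher and 0 lower (median 0.35). Slc7a11, the cystine importer that feeds glutathione synthesis, rose from 12.2 and 11.7 CPM to 126 and 168 CPM. The factor NRF2 itself (Nfe2l2) rose from 94.8 and 92.0 CPM to 196 and 226 CPM. Sqstm1, which encodes the autophagy receptor p62, rose from 123 and 118 CPM to 276 and 241 CPM. Txnrd1 was called at 0.83 ± 0.15, with an adjusted p of 0.0794 without control library 1. Of 8 iron genes Slc11a2, the iron importer DMT1, rose from 61.0 and 49.5 CPM to 203 and 180.5 CPM, and the others did not pass (median 0.21). Of 21 genes of glycolysis and glucose use 3 were called (median 0.04). The glucose transporter Slc2a6 rose from 36.6 and 31.5 CPM to 147 and 137 CPM. Slc2a1, the transporter GLUT1, rose from 53.5 and 45.1 CPM to 118 and 84.3 CPM. Hif1a was called at 0.72 ± 0.19 with an adjusted p of 0.344 without control library 1.

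Acute-phase genes formed the list with the largest median among those with at least 5 tested members, 3.14, and 5 of its 6 tested members rose. Beside Saa3 and Lcn2, the haemoglobin binder Hp (haptoglobin) rose from 3.39 and 5.50 CPM to 62.8 and 58.1 CPM. The protease inhibitor Slpi rose from 9.15 and 8.43 CPM to 24.7 and 19.2 CPM. Of 12 scavenger and C-type lectin receptors 4 rose and 0 fell (median 0.20). Beside Marco, Clec4e (Mincle), which senses mycobacterial glycolipids, rose from 33.2 and 32.3 CPM to 283 and 386 CPM. The inhibitory lectin Clec12a rose from 6.10 and 8.43 CPM to 18.3 and 24.3 CPM. Clec4d was called at 0.78 ± 0.17 with an adjusted p of 0.233 without control library 1. Of 6 Fc gamma receptors 1 rose and 1 fell (median -0.20). The inhibitory receptor Fcgr2b rose from 9.82 and 8.80 CPM to 21.7 and 30.7 CPM, and the activating high-affinity receptor Fcgr1 was called lower, from 195 and 162 CPM to 119 and 101 CPM, with an adjusted p of 0.331 without control library 1.

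Surface adhesion and matrix genes moved both ways. Of 12 adhesion molecules and integrins 2 rose and 1 fell (median -0.02). Icam1, the ligand of leukocyte integrins, rose from 82.3 and 56.8 CPM to 455 and 356 CPM. The fibronectin receptor chain Itga5 rose from 36.2 and 28.2 CPM to 161 and 125 CPM. Itga6 was called lower at -0.56 ± 0.13, with an adjusted p of 0.235 without control library 1 and 0.387 without control library 2. Of 10 genes of matrix proteases and the plasmin system 3 rose and 2 fell (median -0.29). The collagenase Mmp13 rose from 0.339 and 1.47 CPM to 7.48 and 10.9 CPM. The urokinase receptor Plaur rose from 57.9 and 40.7 CPM to 149.9 and 126 CPM. Adam17, the protease that sheds TNF, was called at 0.76 ± 0.16 with an adjusted p of 0.154 without control library 1. Thbd, the anticoagulant receptor thrombomodulin, fell from 12.2 and 14.3 CPM to 1.12 and 0.958 CPM, and Mmp19 was called lower at -1.30 ± 0.31, with an adjusted p of 0.189 without control library 1.

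G protein-coupled receptors split evenly, with 5 of 15 tested members higher, 5 lower and a median of -0.41. Gpr84, a receptor of medium-chain fatty acids, rose from 4.06 and 5.50 CPM to 51.6 and 38.6 CPM. Hcar2, the niacin and beta-hydroxybutyrate receptor, rose from 55.9 and 55.0 CPM to 253 and 262 CPM. The adenosine receptor Adora2b rose from 5.76 and 8.06 CPM to 35.9 and 29.4 CPM. Ptafr, which binds platelet-activating factor, rose from 3.05 and 2.93 CPM to 14.2 and 10.5 CPM. P2ry2, a receptor of ATP and UTP, was called at 0.92 ± 0.24, with an adjusted p of 0.0987 without control library 1 and 0.279 without control library 2. Gpr183 (chr14:121952331-121965193), which binds oxysterols, fell from 63.7 and 46.2 CPM to 5.98 and 6.71 CPM. S1pr1, a sphingosine 1-phosphate receptor, fell from 40.0 and 42.9 CPM to 17.2 and 16.9 CPM. Among the others that were called lower, the ATP-gated channel P2rx7 stood at 53.5 and 57.2 against 33.3 and 31.9 CPM, the cannabinoid receptor Cnr2 at 12.5 and 8.06 against 3.74 and 3.19 CPM and Gpr35 at 12.5 and 10.6 against 5.23 and 3.19 CPM. Their adjusted p-values were 0.0927 without control library 1 and 0.157 without control library 2 for P2rx7, 0.367 without control library 1 and 0.0565 without LPS library 2 for Cnr2 and 0.143 without control library 1 and 0.122 without LPS library 2 for Gpr35.

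Of the 25 largest falls, those with the most reads were apart by a wide margin. Rgs2 (chr1:143999338-144004149), which switches off G protein signalling, fell from 170.4 and 168 CPM to 46.4 and 50.5 CPM, a log2 fold change of -1.8 ± 0.15 (adjusted p = 6.69e-06). Rin2, an exchange factor for the endosomal GTPase RAB5, fell from 116 and 130.1 CPM to 28.0 and 29.1 CPM. Rab7b, a GTPase of late endosomes, fell from 92.5 and 84.3 CPM to 20.9 and 20.4 CPM. Cytip, which tunes integrin adhesion, fell from 97.6 and 95.7 CPM to 24.3 and 29.7 CPM. The activating receptor Cd300lb fell from 92.5 and 86.9 CPM to 21.7 and 23.3 CPM. The ADP receptor P2ry1 fell from 24.4 and 21.3 CPM to 7.10 and 7.03 CPM. Lbh changed by -2.17 ± 0.34 on the log2 scale, Fam78a by -1.75 ± 0.31, and Eya4, a transcription cofactor with phosphatase activity, by -1.92 ± 0.36. For these 9 genes the call held whichever library was left out.

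Calls of falls at lower counts were less firm. Gpr160, the lysoplasmalogenase Tmem86a and Zfp395 stood at 9.15 and 8.06 against 1.5 and 2.24 CPM, 7.11 and 7.70 against 0.748 and 1.28 CPM and 12.2 and 8.80 against 2.99 and 0.958 CPM, in that order. The adjusted p was 0.0744 without control library 1 and 0.131 without LPS library 2 for Sgsm2, 0.207 without control library 2 and 0.0877 without LPS library 2 for Klhl6, 0.104 without control library 2 and 0.0609 without LPS library 2 for Frmd4b and 0.0684 without control library 1 for Tsc22d3, a glucocorticoid-induced gene. It was 0.167 without control library 1, 0.150 without control library 2 and 0.263 without LPS library 2 for the lysosomal transporter Slc46a3, 0.186 without control library 1 and 0.0867 without LPS library 1 for the phosphatidate phosphatase Lpin1 and 0.0987 without control library 1, 0.348 without control library 2, 0.0641 without LPS library 1 and 0.152 without LPS library 2 for the adaptor Shb. It was 0.428 without control library 1, 0.0632 without LPS library 1 and 0.0535 without LPS library 2 for Amica1, a junctional adhesion molecule, and 0.107 without LPS library 1 for Kbtbd11. The 9 genes with these lost calls had means between 5.46 and 11.1 CPM in the control group.

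Genes that mark the resting and the disease-associated state were mostly uncalled, as were all genes tested, of which 5.2% were called. Of 21 tested homeostatic microglia genes 1 rose and 1 was called lower, with a median of -0.20. In this list 11 members were lower without overlap, against 22% of all genes. The lower call was lost without control library 2. Spi1, which encodes the lineage factor PU.1, rose from 227 and 218 CPM to 412 and 340.5 CPM. Csf1r, the receptor that keeps microglia alive, was at 145 and 205 against 147 and 154 CPM, and Trem2, a lipid-sensing receptor, at 352 and 316 against 310.0 and 274 CPM, neither of which passed. Of 19 disease-associated genes Csf1 alone rose (median -0.02). Of 9 genes of the LXR axis 1 was called higher and 2 lower (median -0.20). The receptor Nr1h3 (LXR alpha) was at 15.6 and 13.2 against 28.4 and 30.7 CPM, the desaturase Scd2 at 286 and 276 against 183 and 161 CPM and the LDL receptor ligase Mylip at 15.2 and 16.5 against 7.85 and 7.03 CPM, with adjusted p-values of 0.125 without control library 2 for Nr1h3, 0.0983 without control library 1 for Scd2 and 0.107 without control library 1, 0.173 without control library 2 and 0.0952 without LPS library 2 for Mylip. Of 16 genes of cholesterol synthesis and LDL uptake Insig1 was called (median 0.18), with an adjusted p of 0.0912 without control library 1 and 0.157 without control library 2.

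Genes of the Polycomb machinery did not pass the test, although Phf19 and Suz12 each did in an alternative setting. Over all genes tested 5.2% were called, so counts of 0 in lists this short say little. Of 12 tested PRC2 subunits and H3K27 demethylases edgeR called 0, DESeq2 called 0 and 1 was higher at an unadjusted p below 0.05, with a median of -0.03. Ezh2, the target of the inhibitor, was at 50.8 and 51.3 CPM in the control libraries and 47.1 and 51.4 CPM in the LPS libraries, and its mRNA level says nothing of the enzyme's activity. Suz12 and Eed, which EZH2 needs for activity, were at 85.0 and 114 against 67.3 and 124 CPM and 52.5 and 62.7 against 46.7 and 69.6 CPM. Ezh1 was at 16.6 and 12.1 against 11.6 and 16.6 CPM, Jarid2 at 28.1 and 24.9 against 22.1 and 22.0 CPM, Aebp2 at 8.81 and 12.1 against 13.1 and 10.2 CPM and Mtf2 at 6.10 and 9.90 against 4.49 and 8.62 CPM, and the histone binders Rbbp4 and Rbbp7 at 231 and 228 against 236 and 238 CPM and 286 and 309.7 against 263 and 311 CPM. Phf19 was at 3.73 and 6.23 against 13.5 and 8.94 CPM (log2 fold change 1.16 ± 0.37, adjusted p = 0.124), and the demethylases Kdm6a and Kdm6b at 76.2 and 66.7 against 60.6 and 68.4 CPM and 3.05 and 4.03 against 7.85 and 2.87 CPM. Of 17 PRC1 subunits edgeR and DESeq2 called 0, with 1 higher and 4 lower at an unadjusted p below 0.05 (median 0.05). Of 20 developmental factors that Polycomb commonly silences, 13 had no read in any BV2 library and 1 was tested, with a log2 fold change of -0.22.

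Cell cycle and chaperone genes were mostly uncalled, as were all genes tested, of which 5.2% were called. Of 20 mitosis genes edgeR and DESeq2 called 0, and 0 passed an unadjusted p of 0.05 (median 0.01). Of 21 replication and G1/S genes 1 fell, Ccnd1, which encodes cyclin D1, from 98.2 and 89.4 CPM to 57.2 and 44.1 CPM, a call that held without each library in turn (median -0.17). In this list 13 of 21 were lower without overlap, against 22% of all genes. Of 9 heat shock chaperones edgeR and DESeq2 called 0, with 1 higher and 1 lower at an unadjusted p below 0.05 (median 0.03). Of 16 genes of the unfolded protein and integrated stress responses 2 rose (median -0.03), Herpud1, which acts in degradation at the endoplasmic reticulum, from 41.7 and 38.1 CPM to 133 and 126 CPM and the phosphatase subunit Ppp1r15a (GADD34) from 16.6 and 13.6 CPM to 37.4 and 36.7 CPM. Of 12 p53-linked genes 4 were called higher and 1 lower (median 0.64). Beside Gadd45a and Gdf15, the kinase Plk2 rose from 29.8 and 40.0 CPM to 79.3 and 74.7 CPM. Gadd45b was called at 0.89 ± 0.22 with an adjusted p of 0.231 without control library 1, 0.0514 without control library 2 and 0.0722 without LPS library 2. Sesn1, which restrains mTORC1, fell from 19.6 and 24.9 CPM to 7.10 and 7.67 CPM.

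In the list of the BCL2 family, which holds both survival and death genes, 3 of 14 members rose (median 0.14). Mcl1 rose from 267 and 264 CPM to 531 and 506 CPM. Bcl2a1b rose from 19.3 and 20.9 CPM to 81.5 and 124 CPM and Bcl2a1d from 4.74 and 6.23 CPM to 20.9 and 34.5 CPM, near-identical copies whose reads may be split between them. Cflar, which blocks caspase-8 and was chosen after its values were seen, rose from 20.3 and 19.8 CPM to 76.7 and 97.7 CPM. Of 12 genes of the TGF-beta and activin pathway Skil, a repressor of SMAD signalling, was called at 0.99 ± 0.20, with an adjusted p of 0.0987 without control library 1 (median 0.04). Of 15 glucocorticoid-induced and clock genes 1 was called higher and 3 lower (median -0.24). The clock repressor Bhlhe41 fell from 30.8 and 35.9 CPM to 15 and 13.4 CPM, while Tsc22d3 has been given above. The clock factor Tef was called lower at -0.91 ± 0.22, with an adjusted p of 0.230 without control library 1 and 0.0550 without LPS library 2, and the clock repressor Cry1 higher at 1.01 ± 0.23, with 0.190 without control library 1.

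**Figure D3:**
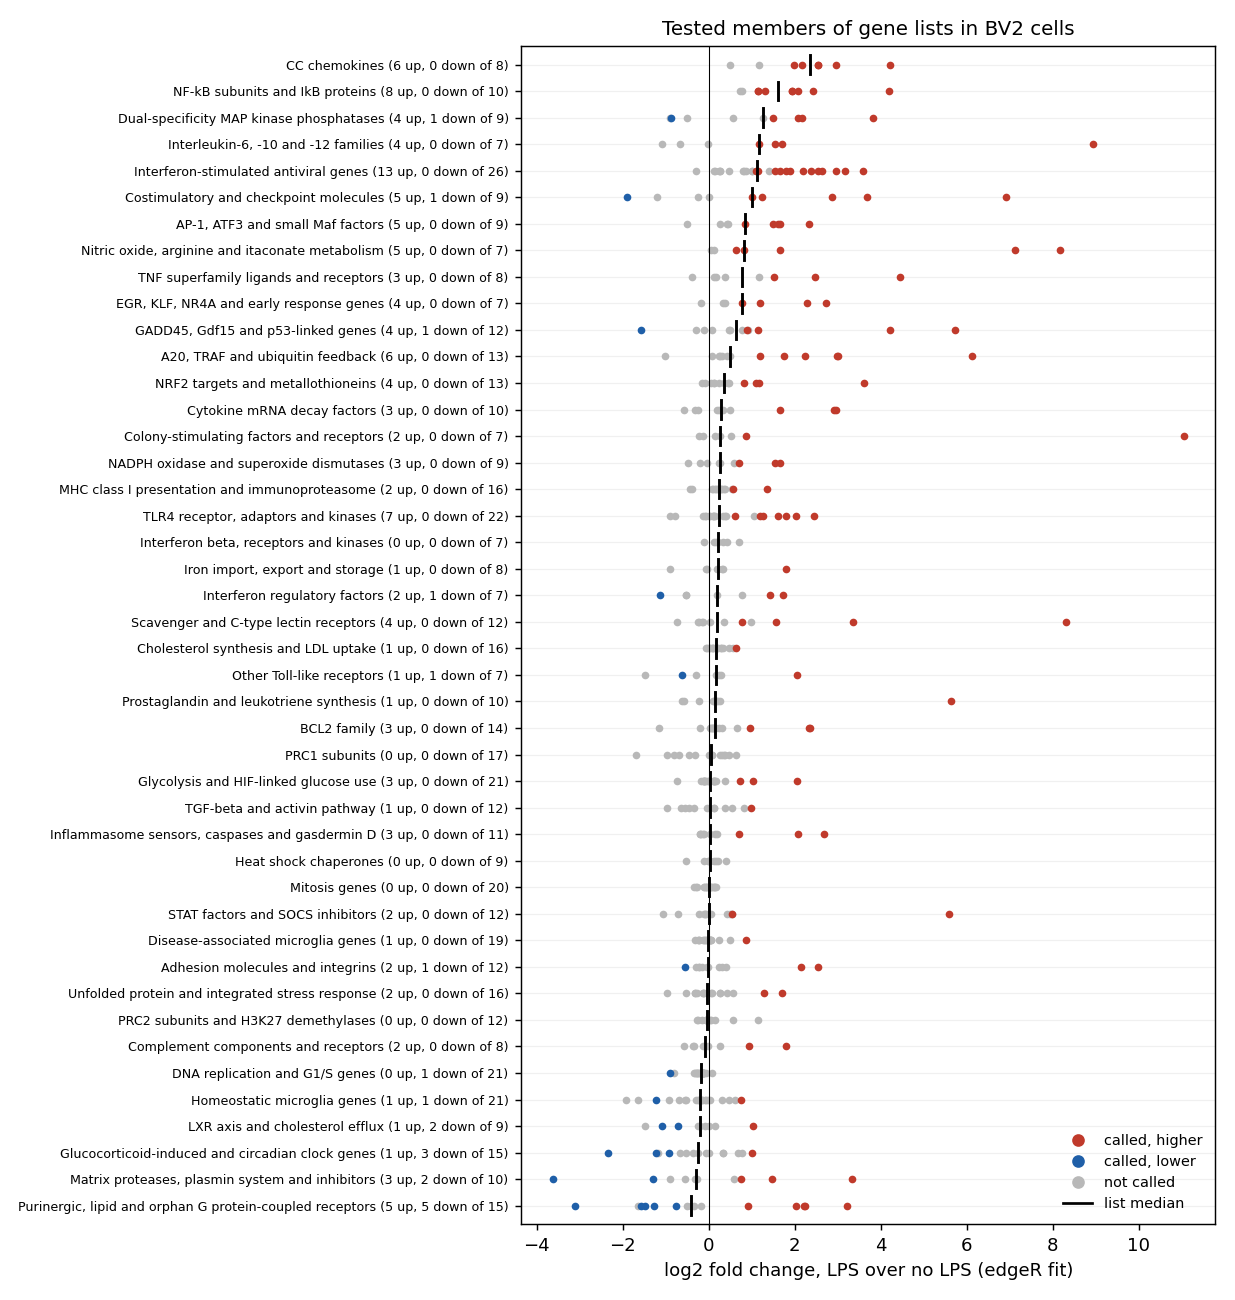
Log2 fold change with LPS in BV2 cells for each tested member of the gene lists with at least 7 tested members, ordered by list median (black bar); red points are called rises, blue points called falls, grey points uncalled genes. The highest median is 2.36 for CC chemokines and the lowest -0.41 for G protein-coupled receptors. The mitosis and PRC2 lists hold grey points alone, where 5.2% of all genes tested were called.

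Outside the lists and the largest changes lay 197 of the 344 rises and 96 of the 141 falls, and the genes named in this and the next paragraph were chosen after their values were seen. Tnfaip2, an actin-remodelling protein of the exocyst family, rose from 92.1 and 76.2 CPM to 1332 and 1037 CPM. The heparan sulfate proteoglycan Sdc4 rose from 124 and 113 CPM to 793 and 729.9 CPM. Mapkapk2, the kinase that stabilises cytokine mRNAs downstream of p38, rose from 417 and 392 CPM to 1029 and 936 CPM. The kinase Pim1 rose from 7.45 and 10.6 CPM to 95.3 and 76.3 CPM. The phosphodiesterase Pde4b, which degrades cAMP, rose from 5.76 and 3.67 CPM to 57.6 and 49.5 CPM. Ehd1, of endocytic recycling, rose from 25.4 and 24.2 CPM to 135 and 120.1 CPM. The intracellular sensor Nod2 rose from 2.71 and 3.67 CPM to 40.4 and 31.9 CPM. Its kinase Ripk2 rose from 6.77 and 6.23 CPM to 21.3 and 20.1 CPM. Malt1, a protease of NF-kB signalling, rose from 35.6 and 41.1 CPM to 123 and 144 CPM. The activating receptor Trem1 rose from 11.5 and 11.4 CPM to 50.9 and 49.2 CPM. The adaptor Lcp2 rose from 75.5 and 65.2 CPM to 193 and 189 CPM, and the related receptors Lilrb4a and Lilr4b by 1.13 ± 0.21 and 1.55 ± 0.21. Among chromatin enzymes, the H3K9 and H3K36 demethylase Kdm4a rose from 19.0 and 20.5 CPM to 86.0 and 86.9 CPM. The methylcytosine oxidase Tet2 rose from 11.9 and 15 CPM to 44.5 and 67.7 CPM. Mir155hg, the host transcript of microRNA 155, went from 0 CPM in both control libraries to 5.23 and 4.47 CPM, at least 9.13-fold higher.

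Among the falls outside the lists, Lyl1, a haematopoietic transcription factor, fell from 96.9 and 85.8 CPM to 40.0 and 28.7 CPM. Cd28, better known as a costimulatory receptor of T cells, fell from 110.1 and 106 CPM to 43.0 and 52.7 CPM. The semaphorin and VEGF co-receptor Nrp1 fell from 68.4 and 68.5 CPM to 29.9 and 35.8 CPM. The cytidine deaminase Apobec1 fell from 87.1 and 70.0 CPM to 35.5 and 38.3 CPM. Slc37a2, a sugar-phosphate transporter, fell from 159 and 158 CPM to 90.5 and 77.3 CPM. The actin regulator Eps8 and the membrane protein Emp1 changed by -1.26 ± 0.20 and -1.07 ± 0.17 on the log2 scale, and the mTOR inhibitor Deptor was called lower at -0.93 ± 0.20, with an adjusted p of 0.113 without control library 2. Of the lipid droplet genes, the coat protein Plin2 stood at 249 and 243 against 166 and 139.6 CPM and the cholesteryl ester hydrolase Nceh1 at 206 and 205 against 136 and 137 CPM, called lower with adjusted p-values of 0.124 without control library 1 and 0.0594 without control library 2 for Plin2 and 0.268 without control library 1 and 0.182 without control library 2 for Nceh1.

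Called rises lay near each other at 9 places of the genome, each a chain of at least 3 of them in which neighbours lay within 100000 bases, so that a whole place can be longer. Of these, chr2:129268210-129371164 held Ckap2l, Il1a and Il1b, and chr11:83525778-83664683 held Ccl5, whose call was lost without any 1 library, with Ccl9, Ccl3 and Ccl4. The place chr16:35694062-35972621 held Dirc2, Parp14, Dtx3l and Parp9, of which the last 3 are antiviral genes. On chromosome 6, chr6:129180615-129365303 held the lectin genes Clec2d, Cd69 and Clec12a, and on chromosome 5, chr5:137821952-137871758 held the paired receptors Pilra, Pilrb1 and Pilrb2. Pilra went from 3.05 and 4.40 CPM to 36.6 and 32.6 CPM, and Pilrb1 from 0.677 and 1.1 CPM to 5.98 and 7.67 CPM, where near-identical Pilrb copies may share reads, and the adjusted p of Pilrb2 was 0.0645 without LPS library 2. Others were chr2:91082374-91214098 with Spi1, Nr1h3 (adjusted p = 0.125 without control library 2) and Acp2, chr8:57482702-57515999 with Sap30, 2500002B13Rik and Hmgb2, and chr8:70616844-70700616 with Lrrc25, Gdf15 and Jund. Places were found from the called genes themselves, so they are a description.

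The BV2 response was set beside that of primary microglia given the same agents. Of the 344 BV2 rises 332 were tested in primary cells, where 292 rose as well, 3 fell and 37 did not pass, against 21.4% of all genes tested there that rose. Of the 141 falls 132 were tested there, and 102 fell, 8 rose and 22 did not pass, against 17.8% that fell. Median log2 changes of the BV2 rises were 1.54 in BV2 cells and 2.34 in primary cells, and those of the falls -1.12 and -1.45. A test of the difference of the log2 changes, made in 1 edgeR fit of all 10 libraries, called 1418 of 11626 genes (12.2%), with 412 above primary cells in BV2 cells (3.54%) and 1006 below (8.65%). Among the BV2 rises it called 194 of 344, of which 159 rose more in primary cells and 35 more in BV2 cells, and among the BV2 falls 60 of 141, with 36 that fell more in primary cells and 24 that did so in BV2 cells. Since these genes were chosen for their call in BV2 cells, the shares are a description. Immortalisation, age of the donor animals, culture and preparation differ together between the 2 kinds of cells and cannot be told apart.

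**Figure D4:**
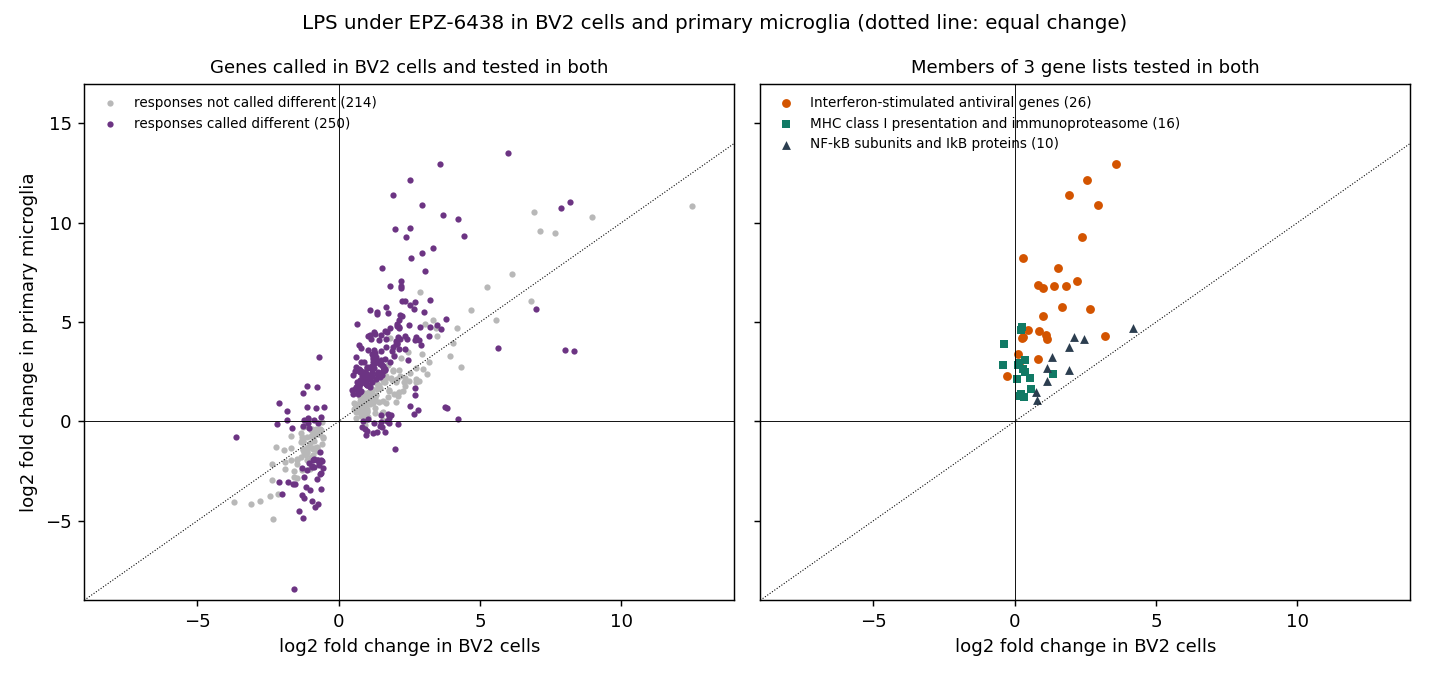
Log2 fold change with LPS in BV2 cells (across) and in primary microglia (upward), each from its own fit; left, genes called in BV2 cells and tested in both, purple where the difference of responses was called; right, tested members of 3 gene lists. The antiviral genes (orange) and class I genes (green) all lie above the dotted line of equal change, and the NF-kB genes (dark triangles) closer to it.

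The largest differences lay at interferon-stimulated genes. All 39 antiviral genes tested in primary cells rose there, with a median of 6.24 against 1.12 over the 26 tested in BV2 cells, and the difference was called lower in BV2 cells at 31 of 39. Rsad2 rose by 2.54 in BV2 cells and by 12.14 in primary cells, where its level went from 0.886 ± 0.451 CPM to 4207 ± 464 CPM (SD, n = 3), a difference of -9.65 ± 0.51 (adjusted p = 6.02e-14). Differences for Oasl1, Ifit1, Cmpk2, Isg15 and Usp18 were -9.55, -9.44, -8.00, -6.94 and -6.20. Primary control libraries held few or no reads of Rsad2, Oasl1, Ifit1 and Isg15, so the size of these differences depends on the prior count. Class I presentation showed the same direction, with 16 of 16 genes that rose in primary cells (median 2.55) and 16 of 16 called differences, all lower in BV2 cells. For Irf7 the log2 change was 0.79 in BV2 cells and 8.32 in primary cells, a difference of -7.59 ± 0.42 (adjusted p = 1.67e-13). NF-kB genes differed less, with 5 of 11 differences called, all lower in BV2 cells, and Nfkbiz changed by 4.19 and 4.70, a difference of -0.56 ± 0.25 that was not called (adjusted p = 0.173).

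Chemokines and Cd40 had the next largest gaps. Differences were -7.73 ± 0.78 for Ccl5, -7.27 ± 0.58 for Ccl7 and -6.77 ± 0.38 for Cd40, and in primary cells Cd40 went from 0.621 ± 0.185 CPM to 921 ± 37.2 CPM. Cxcl10 differed by -7.63, a value that depends on the prior count because primary control libraries held no read of it. The values for Ccl7 and Cd40 depend on it too, since those libraries held few reads of Ccl7 (0.235 ± 0.406 CPM) and of Cd40. In the other direction, Marco differed by 4.64 and Cnr2 by 6.88, which depend on the prior count in the same way: Marco was at 0 in the BV2 control libraries and Cnr2 in the primary LPS libraries. In primary cells Marco went from 33.9 ± 7.75 CPM to 402 ± 60.0 CPM, while the BV2 LPS libraries held 13.8 and 13.7 CPM. Lcn2 rose from 7.14 ± 0.522 CPM to 87.7 ± 31.8 CPM in primary cells, a difference of 4.34 ± 0.96 (adjusted p = 0.00435). Gadd45a went from 11.4 ± 2.25 CPM to 12.4 ± 1.51 CPM there, a difference of 4.04 ± 0.62, and Gdf15 from 1.13 ± 0.340 CPM to 1.22 ± 0.314 CPM, a difference of 5.60 ± 1.11. The BV2 control group held 1 to 3 reads of Lcn2, Gadd45a and Gdf15, so the size of these differences depends on the prior count as well. The same holds for Dusp8, Rasgrp3 and Rab3il1, given below, since a group held few reads of each. Ptgs2 rose more in BV2 cells, by 1.89 ± 0.23 (adjusted p = 6.49e-07), and so did Saa3 and Hp, by 1.27 ± 0.32 and 3.00 ± 0.59. The difference for Lcn2 was not called without control library 1 (adjusted p = 0.0601), nor that for Marco without control library 1 or 2 (0.133 and 0.113), nor that for Dusp8 without control library 1, control library 2 or LPS library 1 (0.130, 0.107 and 0.0700) or the second primary library without LPS (0.0515). Fam46c, Dusp8, Rasgrp3, Rassf3 and Rab3il1 differed by 3.31, 3.07, 3.42, 3.37 and 3.55. The last 3 were called lower in BV2 cells and were lowered more in primary cells, although the adjusted p of the BV2 response was 0.296 without control library 1, 0.184 without control library 2 and 0.0535 without LPS library 2 for Rassf3 and 0.357 without control library 1 for Rab3il1.

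**Figure D5:**
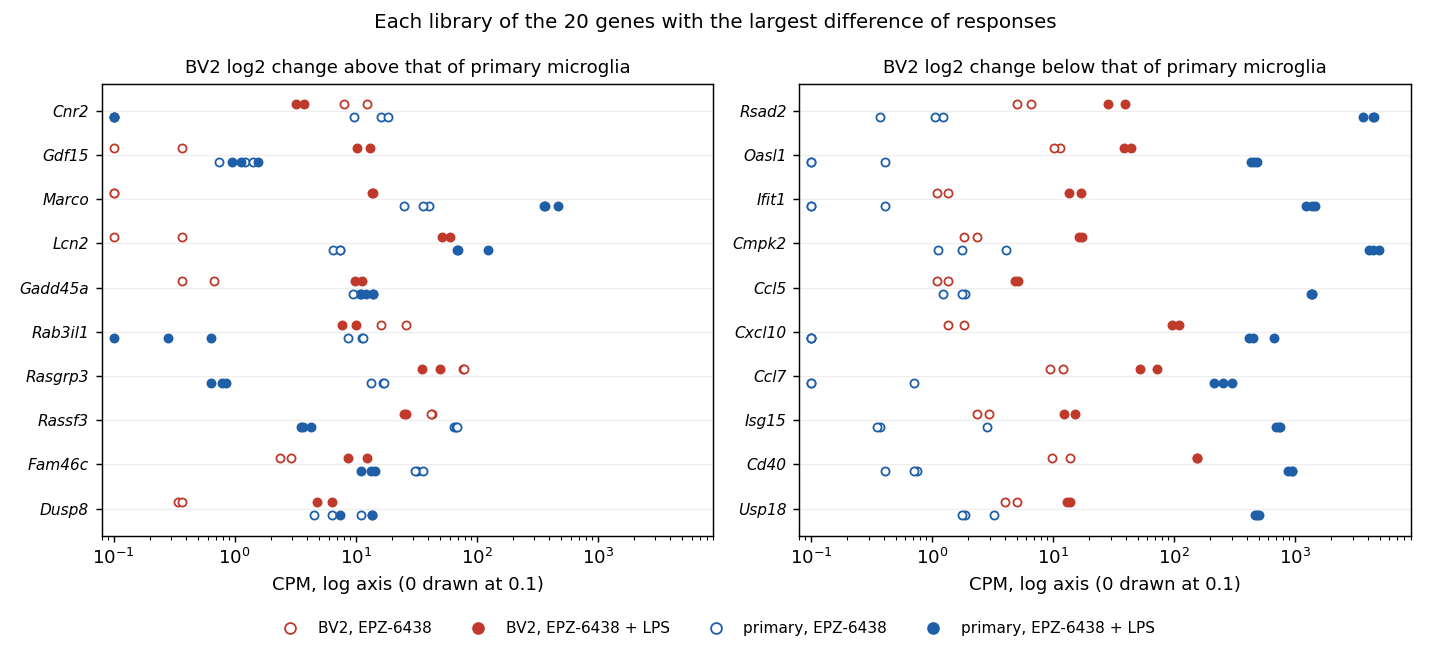
CPM (log axis) in each library of the 10 genes with the largest difference of responses in each direction, with BV2 cells in red and primary microglia in blue, open symbols without LPS and filled symbols with LPS, 0 drawn at 0.1; BV2 and primary levels were scaled in separate fits. In the right panel every filled blue symbol lies at or above 212 CPM, the lowest being Ccl7, whereas the filled red symbols stay below them.

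At 11 genes the calls went in opposite directions, and the difference was called at each. Fcgr1 was lower with LPS in BV2 cells and rose in primary cells from 15.6 ± 3.09 CPM to 149 ± 16.1 CPM, a difference of -4.0 ± 0.23 (adjusted p = 4.82e-13). Rin2 fell in BV2 cells and rose in primary cells from 69.6 ± 1.47 CPM to 132 ± 7.40 CPM, a difference of -3.06 ± 0.20, and Irf2 differed by -2.95 ± 0.28. The RANK receptor gene Tnfrsf11a changed by -1.24 and 1.41, the recycling protein Ehd4 by -0.77 and 1.71, the Notch coactivator Maml2 by -1.11 and 0.72, the clathrin adaptor Dab2 by -0.80 and 0.65, and the scaffold Ahnak by -0.52 and 0.74, in BV2 and primary cells in that order. Higher with LPS in BV2 cells and lower in primary cells were the secretory kinase Fam20c (1.37 and -0.55), Fam46c (1.99 and -1.37) and Cyb561a3 (0.99 and -0.50). In BV2 cells the adjusted p was 0.113 without control library 2 for Tnfrsf11a, 0.207 without control library 1 and 0.0861 without control library 2 for Ehd4, 0.0846 without control library 1 and 0.0532 without control library 2 for Maml2, 0.453 without control library 1 and 0.171 without control library 2 for Ahnak and 0.299 without control library 1, 0.101 without control library 2 and 0.0741 without LPS library 1 for Cyb561a3. For Fcgr1 it was 0.331 without control library 1, and for Irf2 0.0519 without control library 1, 0.0593 without control library 2 and 0.0880 without LPS library 2.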

How the data were processed

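RNA sequencing counts per gene were deposited by the authors as 1 table per library. Reads were handled with CASAVA 1.8.2, Trimmomatic 0.33, STAR 2.5.1 and DESeq2 on build mm10, per the submitters' processing notes, and the sources used here do not give the annotation. Per the file headers and layout, each table holds unstranded counts and counts for either strand. The reverse-strand counts were used, since the other strand held 0.935% to 1.15% of reads assigned to genes in BV2 libraries. The 4 rows that name no gene stayed out of library sizes and tests. They held 76.1% to 79.5% of the column in the BV2 libraries and 70.4% to 79.5% over all 10, and multimapping reads alone made up 10.9% to 11.8% in BV2 libraries. Multimapping reads enter no gene's count, so near-identical copies are undercounted. Groups were taken from titles and treatment labels.

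The test was edgeR 4.0.16 (R 4.3.3, limma 3.58.1), with TMM scaling, filterByExpr (minimum count 10, minimum total 15), robust moderation, the quasi-likelihood F test, and Benjamini-Hochberg adjustment over all genes tested and calls at 0.05. BV2 fold changes came from a fit of the 4 BV2 libraries, primary ones from a fit of 6 libraries, and differences from a fit of all 10. Standard errors are the absolute log2 fold change over the square root of F, and the biological coefficient of variation was 11.4% in BV2 libraries. On counts simulated for the BV2 comparison over 9321 genes, 76.0% of 2-fold and 99.0% of 4-fold changes were called, with 4.86% false calls. For the difference of responses over 11626 genes the shares were 41.5% and 89.6%, with 6.94% false. Simulated 2-fold and 4-fold changes were placed in 96 and 104 genes for the BV2 comparison and in 94 and 106 for the difference. All of these genes lay above a minimum mean count, so the shares do not cover genes with fewer reads. A group at 0 was given a floor of 3 counts over the group, and ratios at 1 to 3 counts carry 95% intervals. Intervals and floors cover counting error only.

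Named genes were the 25 furthest up and the 25 furthest down of the called genes without overlap that had at least 5 CPM in the higher group, called members of the 52 gene lists, other list members by values, all tested PRC2 genes, and the 10 largest called differences in each direction. Members and lists were chosen with earlier results of these data known. Symbols were matched to RefSeq for 9301 of the 9321 tested genes. Motifs were searched on both strands with Python 3.11.15, numpy 2.4.6, pandas 2.3.3 and scipy 1.17.1, and figures drawn with matplotlib 3.10.9. Alternatives were RLE scaling, DESeq2 1.42.0, no low-count filter, each library left out, the replicate number as a block, unstranded counts, counts without Rn45s, a fit of all 10 libraries, moderation without the robust option and the 250-base window. Promoter windows were not used for genes that the sequence table does not list. A few genes of the lists are counted in them but not reported here by name.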

Additional observations from a re-analysis of the deposited data

Results flagged for a closer look

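The difference of the log2 responses to LPS, BV2 cells minus primary microglia, passed edgeR's test at each of the following 20 genes, which were also called in BV2 cells and were the 10 furthest apart in each direction. Below primary cells were the antiviral genes Rsad2 (-9.65), Oasl1 (-9.55), Ifit1 (-9.44), Cmpk2 (-8.00), Isg15 (-6.94) and Usp18 (-6.20), the chemokines Ccl5 (-7.73), Cxcl10 (-7.63) and Ccl7 (-7.27), and Cd40 (-6.77). All 10 rose with LPS in both kinds of culture, and the rise was smaller in BV2 cells. Above primary cells because the log2 change was larger in BV2 cells were Gdf15 (5.60), Marco (4.64), Lcn2 (4.34), Gadd45a (4.04) and Dusp8 (3.07). Marco went from 33.9 to 402 CPM in primary cells, and from 0 CPM to 13.8 and 13.7 CPM in BV2 libraries. The differences for Lcn2, Marco and Dusp8 lost their call in at least 1 fit that left out a BV2 library. Fam46c (3.31) was higher with LPS in BV2 cells and lower in primary cells. Cnr2 (6.88), Rab3il1 (3.55), Rasgrp3 (3.42) and Rassf3 (3.37) were lowered in both, and by less in BV2 cells. Values for Cxcl10, Cnr2 and Marco depend on the prior count, since a group held no read. Those for Rsad2, Oasl1, Ifit1, Isg15, Ccl7, Cd40, Lcn2, Gdf15, Gadd45a, Dusp8, Rasgrp3 and Rab3il1 depend on it too, since a group held few reads.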

How the results depend on the processing

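Of 344 rises and 141 falls, DESeq2 called 258 and 53, all of them among these, and the fit with no low-count filter called 446 and 247. Leaving out 1 library gave 271 to 547 rises and 82 to 253 falls: 271 and 82 without control library 1, 291 and 89 without control library 2, 547 and 253 without LPS library 1, and 426 and 195 without LPS library 2. RLE scaling, the fit of all 10 libraries, moderation without the robust option, unstranded counts and counts without Rn45s gave 343 to 369 rises and 137 to 193 falls. Of 246 named genes that were called, 171 were called in each fit that left out a BV2 library and 160 in every setting that gave a value. The replicate numbers were treated as unpaired: same-numbered libraries deviated together with a correlation of 0.295 over 7271 genes, but there are only 2 pairs. The replicate block gave 406 rises and 190 falls, did not call Ccl5 (adjusted p = 0.0524), and for the difference of responses gave 509 genes above and 1176 below and did not call that of Marco (0.0598), whose rise in BV2 cells it called. The difference, with 412 above, gave 271 to 876 when a library was left out: 271 and 273 without control library 1 and 2, and 876 without the first primary LPS library. In that library Rn45s took 43.7% of gene counts, against 15.7% and 15.99% in the other primary LPS libraries. Counts without Rn45s gave 428 differences above and 930 below, against 412 and 1006. Any further effect of this uneven share on the differences was not tested. Of the uncalled PRC2 genes, Phf19 and Suz12 each passed the test in an alternative setting. For several uncalled PRC2 genes the sign of the log2 fold change turned. Eed was at -0.013 in the fit of all 10 libraries and between -0.27 and 0.28 when a library was left out, and ranges were -0.033 to 0.40 for Aebp2, -0.29 to 0.26 for Ezh1, -0.092 to 0.013 for Ezh2, -0.29 to 1.17 for Kdm6b, -0.79 to 0.13 for Mtf2, -0.15 to 0.066 for Rbbp7 and -0.54 to 0.32 for Suz12. The causes were not tested. Limited to the 250-base window, the kappa B share was 73.7% of named rises and 61.7% of tested genes. At this depth, genes with a few reads, such as Ifnb1, Il10 and Fos, gave no test, and 2 libraries a group limit the precision of every fold change.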
